A study of Homo sapiens with 6 samples.

Results

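The histone genes of SK-MES-1, an established human lung squamous carcinoma line, were followed through 6 RNA-seq libraries, 3 from cells kept without exosomes (control) and 3 from cells given exosomes of lung fibroblasts from idiopathic pulmonary fibrosis (exosome). Members were the rows whose symbol begins with HIST1H, HIST2H, HIST3H, HIST4H, H1F, H2AF or H3F. They were 69 of the 15761 genes in the table, of which 58 were clustered (HIST) genes and 11 were variant (H1F, H2AF and H3F) genes. All cells carried the wild-type genotype given by the labels and were 1 line, so the results describe that line. Exosomes were given at 20 µg/ml in complete medium and RNA was taken after 72 h, while controls had the medium alone. The series title places the work on senescent fibroblasts and their exosomal MMP1, a matrix collagenase. Nothing in the labels says whether libraries of a group came from separate cultures, so the p-values measure the spread between these samples, which may be technical.

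Histones wrap DNA into nucleosomes, and linker histone H1 binds where DNA enters and leaves them. Clustered histone genes are switched on in S phase, when new DNA needs new histones, and their mature mRNAs end in a conserved stem-loop, bound by SLBP, in place of a poly(A) tail. Variant genes are expressed through the cell cycle from ordinary polyadenylated mRNAs and replace the canonical proteins at chosen sites. Some clustered genes can also give longer, polyadenylated mRNAs that read past the stem-loop, as described in cells that leave the cycle or differentiate. A library made from poly(A) RNA mainly sees that longer form. The labels name a NEBNext Ultra kit, with a catalogue number that belongs to the maker's poly(A) selection module, and total RNA as the molecule, and do not otherwise state the selection.

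The stem-loops show which clustered genes have a transcript model that reaches the mature 3′ end. A stem-loop match was found in the annotated transcripts of 26 of the 58 clustered genes and of 1 variant gene, H2AFX, against 11 of 15692 other genes (0.0701%). The search used the histone stem-loop consensus, which needs ambiguity letters. The matches below are from GENCODE 29 transcripts on GRCh38, 5′ to 3′ in DNA letters, with the 4 loop bases in capitals. They are shown for the clustered genes called in the test, where a match exists, and for H2AFX.
HIST1H4I (chr6:27139649-27139674, plus strand): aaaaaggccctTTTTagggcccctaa
HIST1H4H (chr6:26285126-26285151, minus strand): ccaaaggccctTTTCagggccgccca
HIST2H2BE (chr1:149886183-149886208, minus strand): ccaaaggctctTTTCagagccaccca
HIST1H2BH (chr6:26252050-26252075, plus strand): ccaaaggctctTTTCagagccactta
HIST1H2BD (chr6:26158582-26158607, plus strand): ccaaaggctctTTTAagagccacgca
HIST1H2AE (chr6:26217412-26217437, plus strand): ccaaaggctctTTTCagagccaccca
H2AFX (chr11:119094893-119094918, minus strand): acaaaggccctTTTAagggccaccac
All 6 matches in clustered H4 genes opened with the arm ggccct, and all 20 in clustered H2A, H2B and H3 genes opened with ggctct. The H2AFX match had the H4-type arm. The loop was TTTC in 19 of the 26 clustered matches, and HIST1H4I carried the sole TTTT loop among them.

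Libraries held 11346639 to 13334508 counted reads and 12449 genes had enough reads for edgeR's quasi-likelihood test. Over all of them, 25.6% were called higher and 26.1% lower in exosome libraries (adjusted p under 0.05), and the libraries of the groups did not overlap for 59.3%. Fold changes rose with a gene's GC content across the whole table. The median log2 fold change was -0.40 in the bin of 1245 genes with the lowest GC content and 0.50 in the bin of 1245 with the highest, and the share called higher went from 1.69% to 64.7%. Fold changes are therefore given beside a second value, called corrected here, from a fit with each library's trend in GC content and gene length taken out as an offset. With that offset 17.0% of genes were called higher and 16.7% lower. Libraries 3 of both groups lay farthest from their group mates. Levels are given as CPM, counts scaled to the TMM-adjusted library total. In bulk RNA a change in the share of cells that express a gene cannot be told apart from a change in RNA per cell.

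Of the 69 histone genes, 38 could be tested, 10 of 11 variant genes and 28 of 58 clustered genes. Of the 10 variant genes tested, 7 were higher in exosome libraries and none lower, against 25.6% higher and 26.1% lower over all genes. Of the 28 clustered genes, 7 were higher, 2 lower and 19 not called. The median log2 fold change was 0.34 for variant genes, 0.36 for clustered genes and -0.0042 for all genes. Corrected, the medians were 0.30, 0.019 and -0.0026. In the corrected fit 7 variant genes were higher and 0 lower, and 2 clustered genes were higher and 4 lower, beside 17.0% and 16.7% of all genes. The 7 variant genes were not the same set in both fits, since H2AFX and H2AFY lost the call and H2AFV and H3F3A gained it. Of the 16 members called in the first fit, 9 kept their call and direction there. Libraries of the groups did not overlap for 7 of the 10 variant and 12 of the 28 clustered genes, against 59.3% of all genes.

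**Figure D1:**
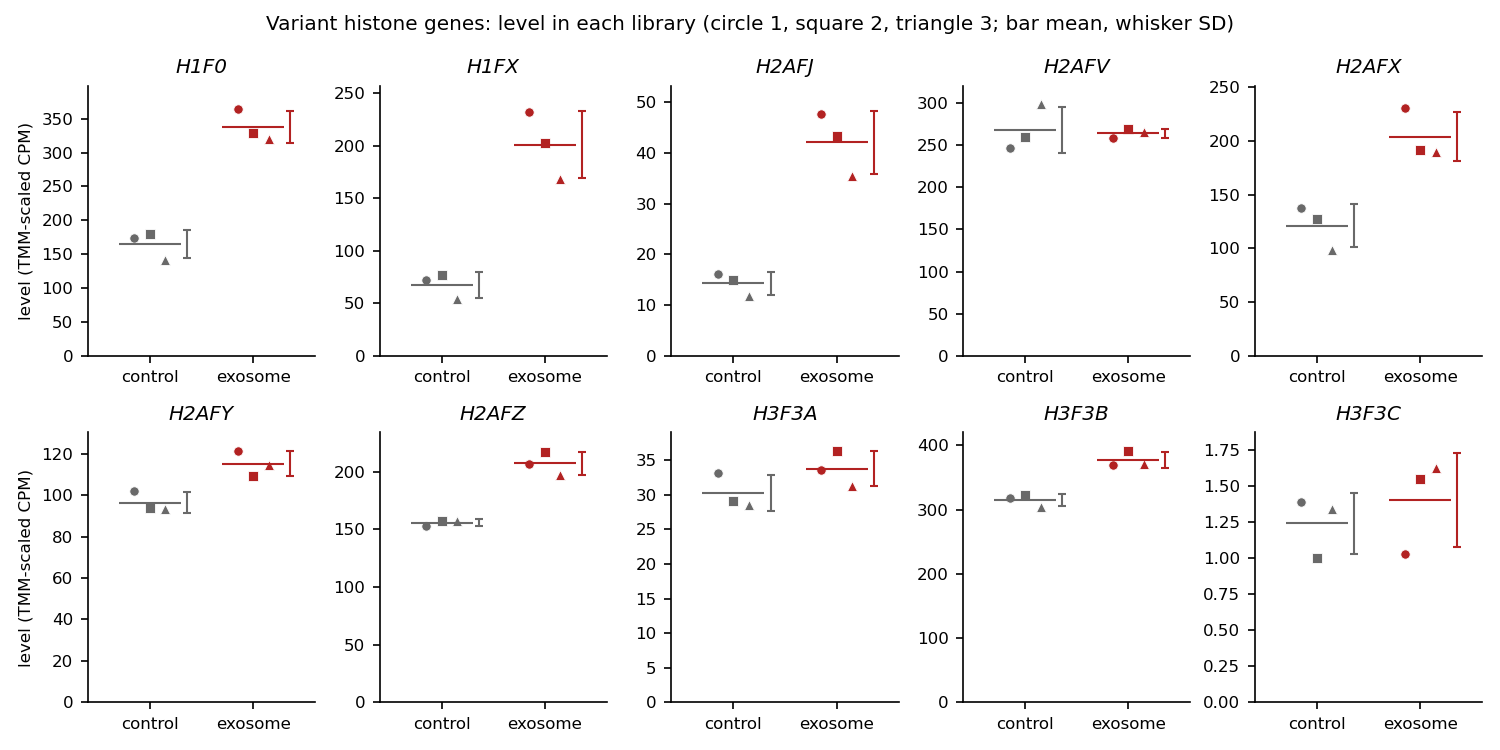
Level of each tested variant histone gene (TMM-scaled CPM, linear axis from 0) in the 3 control and 3 exosome libraries, with the mean (bar) and SD (whisker). Control and exosome points do not overlap for H1F0, H1FX, H2AFJ, H2AFX, H2AFY, H2AFZ and H3F3B, and overlap for H2AFV, H3F3A and H3F3C.

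Both variant linker histones rose. H1F0 (chr22:37805093-37807436, plus strand) encodes the linker histone known to build up in resting and differentiated cells. Its level was 174, 180.1 and 141 CPM in control libraries and 364, 328 and 319.7 CPM in exosome libraries. Every exosome library lay far above every control library. H1F0 rose 2.05-fold (log2 fold change 1.03, SE 0.089, adjusted p = 1.2e-08), and the corrected value was 0.82 (adjusted p = 4.71e-09).

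H1FX (chr3:129314771-129316277, minus strand) encodes H1X, a linker variant found in most cell types. It had 72.6, 77.1 and 53.7 CPM in controls and 232, 203 and 168 CPM with exosomes. The groups did not overlap, and library 3 was the lowest of each. H1FX rose 2.97-fold (log2 fold change 1.57, SE 0.15, adjusted p = 2.51e-05), the largest rise among the 38 tested members without correction. Its GC content, 68.6%, was the highest among the tested members, and the corrected log2 fold change was 0.91 (SE 0.061, adjusted p = 9.05e-11). The RNA gene H1FX-AS1 lies on the opposite strand, and strand use in the counting is not given, so their reads cannot be told apart. Per length, in the authors' FPKM, H1FX made up 22.9% ± 2.05 (SD, n = 3) of the summed level of the 8 H1 genes in controls and 35.0% ± 1.72 (SD, n = 3) with exosomes. HIST1H1C made up 40.3% ± 3.14 (SD, n = 3) and 26.5% ± 2.47 (SD, n = 3). H1F0 stood at 35.9% ± 1.37 and 38.1% ± 2.79 (SD, n = 3 each). These shares carry no correction for the GC trend, and the corrected log2 fold changes were 0.91 for H1FX and 0.82 for H1F0. The mean FPKM of HIST1H1C was 76.2 in controls and 104 with exosomes, so its smaller share was not a lower level in these uncorrected values. Its corrected log2 fold change was -0.19 and was not called (adjusted p = 0.0921).

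The H1FX promoter is shown because H1FX had the largest rise without correction. With the correction H2AFJ rose most (0.95), and HIST1H4I had the largest change in size (-1.15). The 250 bases before its start (RefSeq, GRCh38.p14, chr3:129316287-129316536, minus strand) are printed with motif matches in capitals.
H1FX: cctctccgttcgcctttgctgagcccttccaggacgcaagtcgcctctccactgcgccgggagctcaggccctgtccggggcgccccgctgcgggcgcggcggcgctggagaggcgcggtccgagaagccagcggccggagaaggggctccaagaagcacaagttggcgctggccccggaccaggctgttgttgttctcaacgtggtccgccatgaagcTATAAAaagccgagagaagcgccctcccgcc
The window held 1 TATAAA and no CCAAT, ATTTGCAT or AAACACAA on either strand.

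Of the 5 variant H2A genes tested, 4 rose (H2AFJ, H2AFX, H2AFZ and H2AFY) and 1, H2AFV, was not called, against 25.6% of all genes called higher. Corrected, H2AFJ, H2AFZ and H2AFV were called higher, and H2AFX and H2AFY were not called. H2AFJ (chr12:14774383-14778002, plus strand) encodes H2A.J, a variant reported to accumulate in senescent fibroblasts. It stood at 16.2, 14.99 and 11.8 CPM in controls and at 47.6, 43.4 and 35.4 CPM with exosomes, with no overlap between the groups. H2AFJ rose 2.94-fold (log2 fold change 1.56, SE 0.13, adjusted p = 1.04e-08), and its corrected value was 0.95 (adjusted p = 1.04e-07). Its counted model has a GC content of 62.9%.

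H2AFX (chr11:119093854-119095467, minus strand) encodes H2A.X, which is phosphorylated beside DNA double-strand breaks, and its mRNA is known in both stem-loop and polyadenylated forms. Control libraries had 138, 127 and 98.7 CPM and exosome libraries 230.2, 192 and 189 CPM. The groups did not overlap. H2AFX rose 1.68-fold (log2 fold change 0.75, SE 0.11, adjusted p = 6.24e-05). Its GC content was 66.4%, and with the GC and length trend taken out the log2 fold change was 0.14 and was not called (adjusted p = 0.0832).

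H2AFZ (chr4:99948086-99950388, minus strand) encodes an H2A.Z protein found at promoters, and H2AFV encodes a near-identical H2A.Z protein. H2AFZ had 153, 158 and 158 CPM in controls and 207, 218 and 198 CPM with exosomes, and rose 1.33-fold (log2 fold change 0.41, SE 0.074, adjusted p = 0.000107; corrected 0.23, adjusted p = 0.00643). H2AFV (chr7:44826791-44848083, minus strand) had 246, 259 and 299 CPM in controls and 258, 269 and 265 CPM with exosomes. Its groups overlapped, and control library 3 was the highest of the 6. The H2AFV log2 fold change was -0.02 (95% interval -0.19 to 0.14, adjusted p = 0.839), 0.08 without control library 3, and 0.19 corrected (adjusted p = 0.0287). The 2 genes differed per length in their level too, since H2AFZ averaged 155 FPKM and H2AFV 54.9 FPKM in controls.

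H2AFY (chr5:135333900-135399914, minus strand) encodes macroH2A1, which carries a large extra domain and is enriched on the inactive X chromosome. It had 102, 93.6 and 93.2 CPM in controls and 121, 109 and 115 CPM with exosomes, again without overlap. The rise was 1.20-fold (log2 fold change 0.26, SE 0.079, adjusted p = 0.0097). It was not called without exosome library 1 (0.22, adjusted p = 0.0503) or in the corrected fit (0.02, adjusted p = 0.865). H2AFY2, which encodes macroH2A2, had 1, 2 and 6 reads in controls and 7, 0 and 1 with exosomes and was not tested.

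Of the 3 variant H3 genes, 1 rose and none fell, against 25.6% and 26.1% of all genes. H3F3A and H3F3B encode the same protein, the replacement histone H3 laid down outside S phase by HIRA and by ATRX with DAXX. H3F3B (chr17:75776434-75785893, minus strand) had 318, 323 and 304 CPM in controls and 369.8, 392 and 371 CPM with exosomes. H3F3B rose 1.20-fold, with no overlap (log2 fold change 0.26, SE 0.073, adjusted p = 0.0049; corrected 0.40, adjusted p = 8.61e-06). H3F3A (chr1:226061851-226072001, plus strand) had 33.2, 29.1 and 28.5 CPM in controls and 33.6, 36.4 and 31.3 CPM with exosomes. Its groups overlapped and it was not called (log2 fold change 0.16, 95% interval -0.059 to 0.38, adjusted p = 0.217), while the corrected value was 0.37 (adjusted p = 0.00482). Per length H3F3B stood at 104 ± 2.54 FPKM and H3F3A at 9.34 ± 0.699 FPKM in controls (SD, n = 3). In the 50-base words of its longest transcript, H3F3A shares 12.9% with other transcripts, so its level may be undercounted. H3F3C, a retrocopy-derived gene on chromosome 12, had 1.39, 0.999 and 1.34 CPM in controls and 1.03, 1.55 and 1.63 CPM with exosomes. These values overlapped and were not called (adjusted p = 0.725). H2AFY, H2AFZ, H3F3A and H3F3B each overlap an annotated gene on the opposite strand, as H1FX does. The counted length of H3F3A equals its exon union, so the same limit on its reads applies. H2AFY, H2AFZ and H3F3B were counted over 3019 of 17730, 979 of 2303 and 2929 of 6134 exon bases. Whether their counted bases hold the overlaps is not known.

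Clustered H1 was read almost wholly from 1 gene. HIST1H1C (chr6:26055787-26056428, minus strand) had 48.1, 54.1 and 48.9 CPM in controls and 67.7, 73.6 and 52.9 CPM with exosomes. Exosome library 3 lay inside the control range. HIST1H1C was called higher (log2 fold change 0.36, SE 0.11, adjusted p = 0.00727), but not without exosome library 2 (0.26, adjusted p = 0.0774). The corrected value had the other sign and was not called (-0.19, adjusted p = 0.0921). The other 5 clustered H1 genes, HIST1H1A, HIST1H1B, HIST1H1D, HIST1H1E and the testis gene HIST1H1T, had at most 11 reads in any library.

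Of the 13 clustered H2A genes, 5 were tested, 2 rose (40.0%) and none fell, against 25.6% and 26.1% of all genes. The most abundant did not differ: HIST1H2AC (chr6:26124145-26139116, plus strand) had 82.0, 88.9 and 77.6 CPM in controls and 89.0, 86.3 and 82.9 CPM with exosomes. Its groups overlapped throughout (log2 fold change 0.06, 95% interval -0.11 to 0.23, adjusted p = 0.595). HIST1H2AG (chr6:27133042-27135291, plus strand) had 16.8, 17.8 and 18.3 CPM in controls and 17.0, 18.7 and 16.7 CPM with exosomes, also overlapping (log2 fold change -0.01, 95% interval -0.26 to 0.24).

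The 2 clustered H2A genes that rose were low. HIST1H2AE (chr6:26216975-26217483, plus strand) went from 2.04, 2.45 and 1.10 CPM to 3.96, 4.73 and 3.70 CPM (log2 fold change 1.16, SE 0.28, adjusted p = 0.00172). HIST1H2AM (chr6:27892757-27893149, minus strand) went from 1.23, 1.63 and 0.867 CPM to 3.08, 3.77 and 2.67 CPM (log2 fold change 1.36, SE 0.32, adjusted p = 0.00107). Neither overlapped between groups, and corrected both were not called, at 0.65 (adjusted p = 0.0624) and 0.78 (adjusted p = 0.0521). HIST1H2AM shares 86.3% of its 50-base words (297) with other transcripts and overlaps HIST1H3J on the same strand. HIST1H3J also shares 297 words, so both facts may come from the same bases. HIST1H3J was counted over 411 of 775 exon bases, which equals its coding length. Whether the overlap affected the reads of HIST1H2AM was not tested. HIST1H2AI, with 62.3% of its words shared, had 4.74, 7.27 and 4.96 CPM in controls and 3.96, 4.66 and 3.93 CPM with exosomes. The groups did not overlap, yet HIST1H2AI was called only in the corrected fit (log2 fold change -0.43, adjusted p = 0.105; corrected -1.01, adjusted p = 0.000797).

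Clustered H2B was the family with the most genes in range, 12 of 16. Of these 12, 3 rose and none fell, against 25.6% higher and 26.1% lower over all genes. Rises were thus no more frequent in this family than over all genes. HIST2H2BE (chr1:149884459-149886652, minus strand) encodes an H2B known to be made from polyadenylated mRNA in non-dividing cells. It had 17.8, 19.3 and 14.97 CPM in controls and 24.7, 24.2 and 21.8 CPM with exosomes. The groups did not overlap, and HIST2H2BE rose 1.36-fold (log2 fold change 0.44, SE 0.12, adjusted p = 0.0049; corrected 0.38, adjusted p = 0.00953). It kept its call in all 15 alternative settings.

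HIST1H2BH and HIST1H2BD also rose. HIST1H2BH (chr6:26251651-26253710, plus strand) had 4.58, 5.63 and 4.96 CPM in controls and 7.34, 9.02 and 6.00 CPM with exosomes, without overlap (log2 fold change 0.56, SE 0.20, adjusted p = 0.0201; corrected 0.65, adjusted p = 0.00938). Without control library 1 it was not called (0.50, adjusted p = 0.0627), nor without exosome library 2 (0.40, adjusted p = 0.156). HIST1H2BD (chr6:26158146-26171349, plus strand) had 46.7, 48.0 and 33.1 CPM in controls and 52.8, 59.0 and 53.0 CPM with exosomes. HIST1H2BD was called (log2 fold change 0.37, SE 0.12, adjusted p = 0.0121), but not without exosome library 2 (0.32, adjusted p = 0.0592) and not corrected (0.15, adjusted p = 0.177).

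HIST1H2BK (chr6:27146418-27146798, minus strand) had the highest level per length of any clustered gene in controls, at 87.4 ± 25.5 FPKM (SD, n = 3), within its spread of HIST1H1C at 76.2 ± 5.02 FPKM, and was not called. It had 44.5, 34.6 and 23.9 CPM in controls and 43.8, 46.2 and 41.1 CPM with exosomes. Control library 1 overlapped the exosome range, and control library 3 was the lowest. The log2 fold change was 0.35 (95% interval -0.069 to 0.77, adjusted p = 0.147), 0.59 and called without control library 1 (adjusted p = 0.000628), and -0.21 corrected (adjusted p = 0.134). HIST1H2BK shares 74.1% of its 50-base words with other transcripts, and its counted model holds only the 381 coding bases.

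Of the other 8 clustered H2B genes tested, none was called. Those over 5 CPM were HIST1H2BG, HIST1H2BN, HIST1H2BC and HIST1H2BJ. HIST1H2BG had 8.01, 6.18 and 7.56 CPM in controls and 7.05, 9.61 and 5.63 CPM with exosomes. HIST1H2BN had 7.85, 7.27 and 5.99 CPM and 6.09, 4.21 and 6.15 CPM in the same order. HIST1H2BC had 6.87, 6.08 and 4.49 CPM and 5.50, 4.14 and 6.15 CPM. The groups of all 3 genes overlapped. HIST1H2BJ had 5.64, 5.45 and 3.70 CPM in controls and 6.75, 6.50 and 6.15 CPM with exosomes, without overlap (log2 fold change 0.40, SE 0.20, adjusted p = 0.102). HIST1H2BE, HIST1H2BF, HIST1H2BO and HIST2H2BF had means from 0.715 to 3.05 CPM and overlapped between groups.

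The HIST2H2BE promoter carries the elements typical of an H2B gene. The 250 bases before its start (RefSeq, GRCh38.p14, chr1:149886683-149886932, minus strand) are printed with motif matches on either strand in capitals.
HIST2H2BE: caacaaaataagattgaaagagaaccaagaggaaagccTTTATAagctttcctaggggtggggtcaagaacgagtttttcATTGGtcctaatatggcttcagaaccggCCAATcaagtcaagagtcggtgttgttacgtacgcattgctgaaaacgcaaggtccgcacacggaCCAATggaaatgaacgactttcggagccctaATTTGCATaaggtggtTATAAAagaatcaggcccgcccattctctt
It held 3 CCAAT boxes, 1 ATTTGCAT octamer and 2 TATAAA boxes. HIST2H2AC lies on the other strand, with a RefSeq start at base 149886918 of chromosome 1, inside this window. Its GENCODE 29 model is chr1:149886975-149887364. It had too few reads for the test, with 4, 4 and 5 reads in controls and 28, 17 and 10 with exosomes.

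Of the 12 clustered H3 genes, 6 were tested and 1 was called, higher (16.7%, against 25.6% of all genes). HIST1H3H (chr6:27810064-27811300, plus strand) had 21.5, 20.1 and 19.0 CPM in controls and 16.4, 17.6 and 18.6 CPM with exosomes. The groups did not overlap, though the difference was not called (log2 fold change -0.20, SE 0.12, adjusted p = 0.163), and corrected it was -0.43 (adjusted p = 0.00405). HIST1H3E had 8.75, 8.26 and 6.85 CPM in controls and 8.44, 9.02 and 8.89 CPM with exosomes, overlapping (log2 fold change 0.15, adjusted p = 0.478). HIST1H3G had 5.15, 3.81 and 6.62 CPM and 5.73, 6.13 and 5.33 CPM, also overlapping (log2 fold change 0.13, adjusted p = 0.622).

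HIST2H3PS2 (chr1:143905556-143905966, minus strand), an H3 copy whose symbol names it a pseudogene, was the called one. It had 4.41, 5.36 and 5.52 CPM in controls and 7.85, 6.87 and 7.26 CPM with exosomes (log2 fold change 0.52, SE 0.18, adjusted p = 0.0206). The call was lost on leaving out control library 1 (0.44, adjusted p = 0.0854) and likewise exosome library 1 (0.47, adjusted p = 0.0832). DESeq2 did not call it (0.53, adjusted p = 0.0512), and the corrected value was -0.07 (adjusted p = 0.815). All of its 50-base words (100%) occur in other transcripts, so its reads cannot be assigned with certainty. HIST1H3B and HIST1H3C were under 2 CPM in every library and were not called.

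Without the correction, clustered H4 was the only clustered family with falls. Of its 11 genes, 4 were tested, 2 fell and none rose, against 26.1% lower and 25.6% higher over all genes. Corrected, the H4 counts were the same, but HIST1H2AI of clustered H2A and HIST1H3H of clustered H3 were called lower too. HIST1H4I (chr6:27138588-27139881, plus strand) had 24.8, 25.5 and 21.6 CPM in controls and 11.8, 12.9 and 11.2 CPM with exosomes. Every exosome library lay well below every control library. HIST1H4I was 1.997-fold lower (log2 fold change -0.998, SE 0.13, adjusted p = 2.15e-06; corrected -1.15, adjusted p = 3.25e-08). HIST1H4H (chr6:26277609-26285638, minus strand) had 16.4, 18.3 and 17.2 CPM in controls and 9.84, 12.8 and 12.0 CPM with exosomes, without overlap. HIST1H4H was 1.499-fold lower (log2 fold change -0.58, SE 0.14, adjusted p = 0.00126; corrected -0.68, adjusted p = 0.000201). Both kept their call in all 15 alternative settings.

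Both H4 models are longer than the mature histone mRNA. RefSeq places the HIST1H4I transcript at chr6:27139282-27139678 and the HIST1H4H transcript at chr6:26285126-26285534, inside the GENCODE 29 genes above, so reads outside the stem-loop mRNA could be counted. The HIST1H4I gene also lies within the RefSeq span of HIST1H2BK on the opposite strand (chr6:27138293-27146858). Whether reads of that transcript entered its count was not tested. HIST1H4J had 0.899, 0.454 and 0.236 CPM in controls and 0.807, 0.961 and 0.815 CPM with exosomes. HIST1H4K had 1.47, 1.09 and 1.97 CPM in controls and 2.06, 2.66 and 2.07 CPM with exosomes. Neither was called (adjusted p = 0.267 and 0.142), and 81.2% and 100% of their 50-base words are shared with other transcripts.

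**Figure D2:**
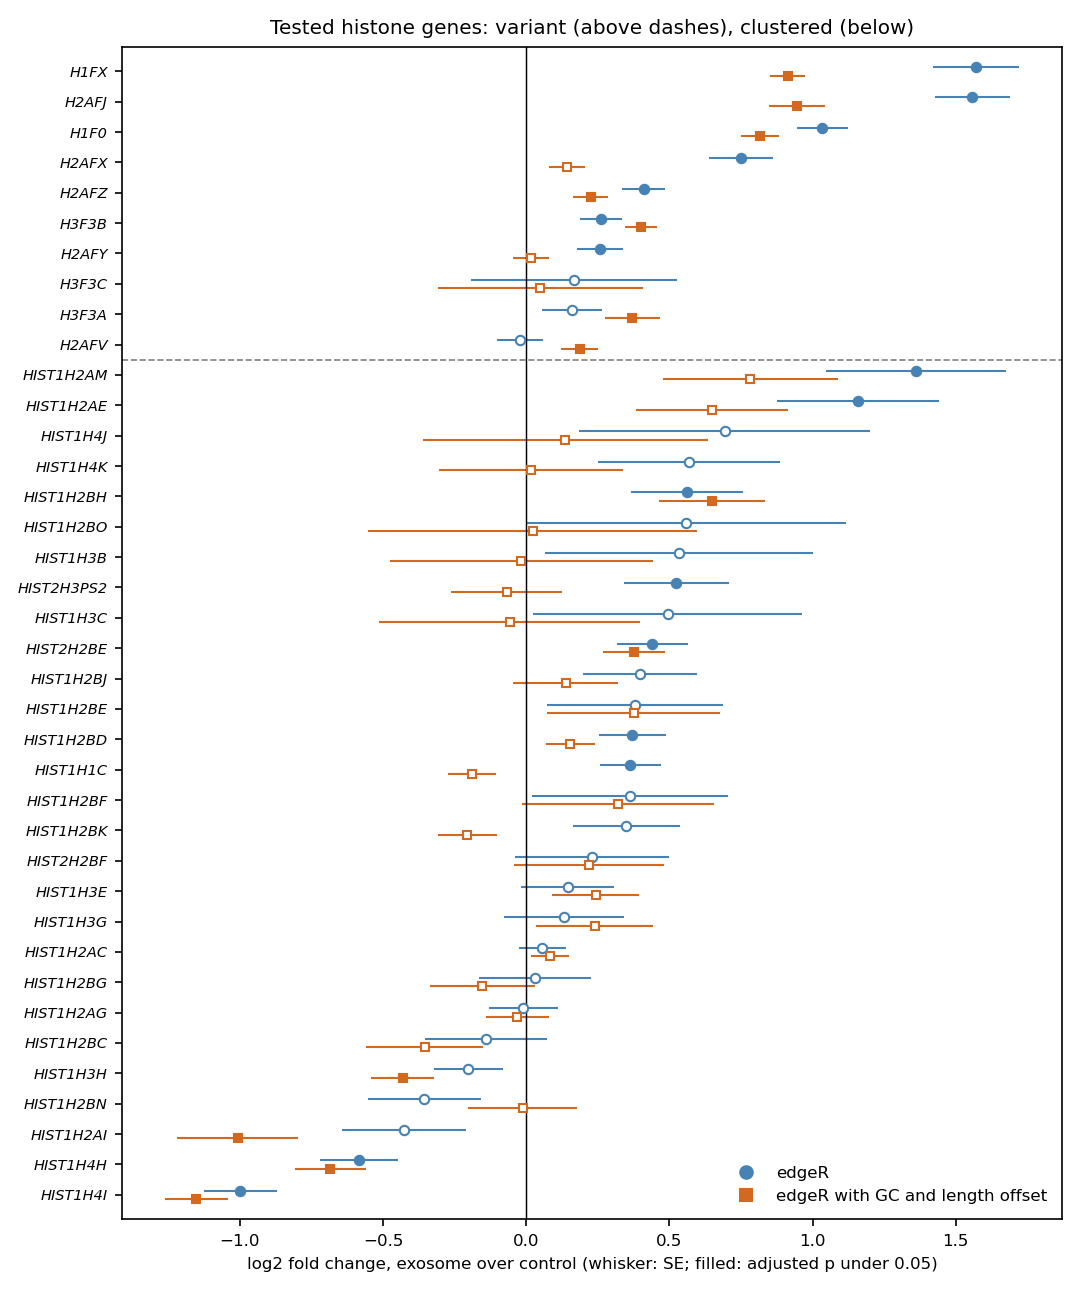
Log2 fold change (exosome over control) with its SE for the 38 tested histone genes, from edgeR (blue circles) and with the GC and length offset (orange squares), filled where the adjusted p was under 0.05. H1FX and H2AFJ lie farthest right among the blue circles and H2AFJ, H1FX and H1F0 among the orange squares, HIST1H4I lies farthest left in both, and the orange squares of HIST1H1C, HIST1H2BK and HIST2H3PS2 sit below 0.

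The other 31 members had too few reads to test, at most 28 in any library, and 27 of them had fewer than 10 in every library. They comprise 30 clustered genes and H2AFY2. The 30 clustered genes summed to 52, 46 and 81 reads in controls and 102, 111 and 64 with exosomes, and these sums overlapped. HIST1H4C, an H4 gene often abundant in S phase cells, had 2, 1 and 6 reads in controls and 5, 2 and 7 with exosomes. With no filter on low counts 3 of the 30 were called higher, chosen here for that call and given without the share of all genes called in that fit. HIST2H2AC was the first (adjusted p = 0.00254). HIST1H4E had 7, 5 and 5 reads against 17, 27 and 7 (adjusted p = 0.0238). HIST1H2AL had 0, 0 and 0 against 7, 5 and 1, and it overlaps HIST1H2BN on the same strand. It entered that fit only through the exosome libraries, where it is high, so its call carries no weight.

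Clustered genes with long annotated models were tested most often. Each gene was placed by its annotated transcript with the most bases after a stem-loop match, which need not be its longest or counted one. Of the 17 clustered genes where that transcript runs at least 100 bases past the stem-loop, 15 were tested. Of the 9 where it ends sooner, 4 were tested, and of the 32 with no match 9 were tested. The summed level of the 17 was 226, 234 and 213 CPM in controls and 217, 225 and 209 CPM with exosomes, so the groups overlapped and the ratio of means was 0.969. The summed level of the 27 genes counted over coding bases only was 106, 99.9 and 86.5 CPM in controls and 132, 140.4 and 112 CPM with exosomes, a ratio of 1.32 without overlap. Of those 27, 8 were tested, 3 rose (37.5%) and none fell, against 25.6% and 26.1% of all genes. Corrected, 0 rose and 0 fell. The median GC content of the 8 tested was 60.5%, against 46.8% for the 15 tested genes with long models. The coding-only models are also mostly shorter, and length is part of the same offset. Models of one gene class are not independent replicates, so no test was made on these sums.

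**Figure D3:**
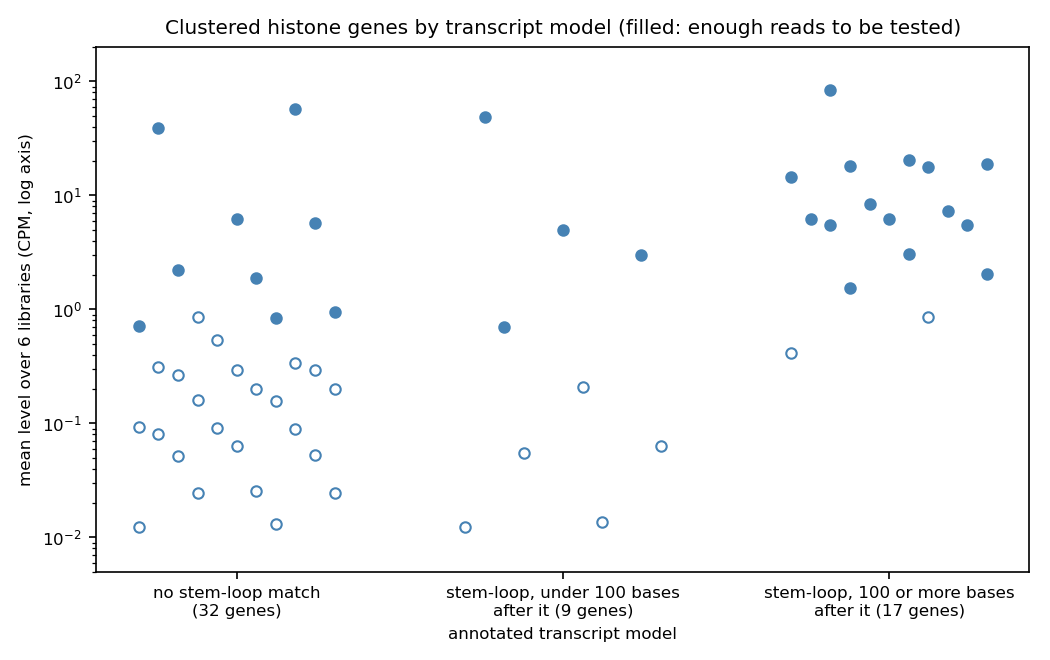
Mean level over the 6 libraries (CPM, log axis) of the 58 clustered histone genes, by whether the annotated transcript holds a stem-loop match and how far it runs past it, filled where the gene could be tested. The 17 genes with 100 or more bases past the stem-loop include 15 filled points, and the 32 genes without a match include 9.

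Fold changes of the members followed the trend with GC content only in part. HIST1H2BH (41.6% GC) and H1F0 (53.2%) lay above the median of genes of like GC content, and HIST1H4I (46.8%), HIST1H4H (44.1%) and HIST1H2AI (59.6%) lay below it. HIST2H3PS2 (66.4%), HIST1H2BK (61.2%) and HIST1H1C (57.5%) lay near it. The corrected values given with each gene are not these distances, since they also take out the trend in gene length. What lies behind the trend over all genes was not tested.

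**Figure D4:**
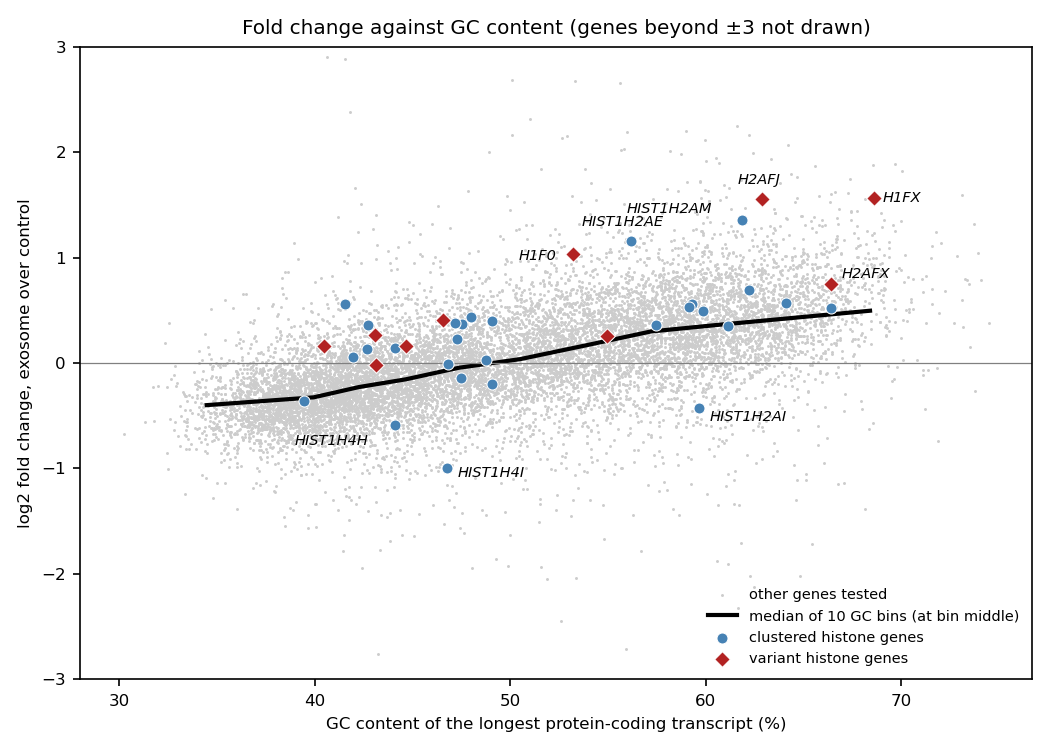
Log2 fold change (exosome over control) against the GC content of the longest protein-coding transcript for the genes tested (grey), with clustered (blue circles) and variant (red diamonds) histone genes and the median of 10 GC bins (line). The line climbs from -0.40 to 0.50, with H1FX, H2AFJ and H1F0 above it and HIST1H4I, HIST1H4H and HIST1H2AI below it.

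Summed over all members without the correction, variant histone RNA was higher with exosomes and clustered histone RNA differed little. The 11 variant genes summed to 1254, 1263 and 1189 CPM in controls and 1866, 1792 and 1694 CPM with exosomes, a ratio of means of 1.44 without overlap. The 58 clustered genes summed to 393, 399 and 344 CPM and to 419, 443 and 390.0 CPM, a ratio of 1.10 with overlap. By family, the ratio was 1.27 for clustered H1, 1.07 for H2A, 1.24 for H2B, 1.03 for H3 and 0.649 for H4. The H4 sums were 44.9, 46.4 and 42.5 CPM in controls and 26.9, 32.4 and 27.6 CPM with exosomes, without overlap. Only the H2B and H4 family sums were free of overlap among the 5 families. These sums are descriptions, since a few abundant genes set each of them, and they carry no correction for the trend in GC content and length.

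**Figure D5:**
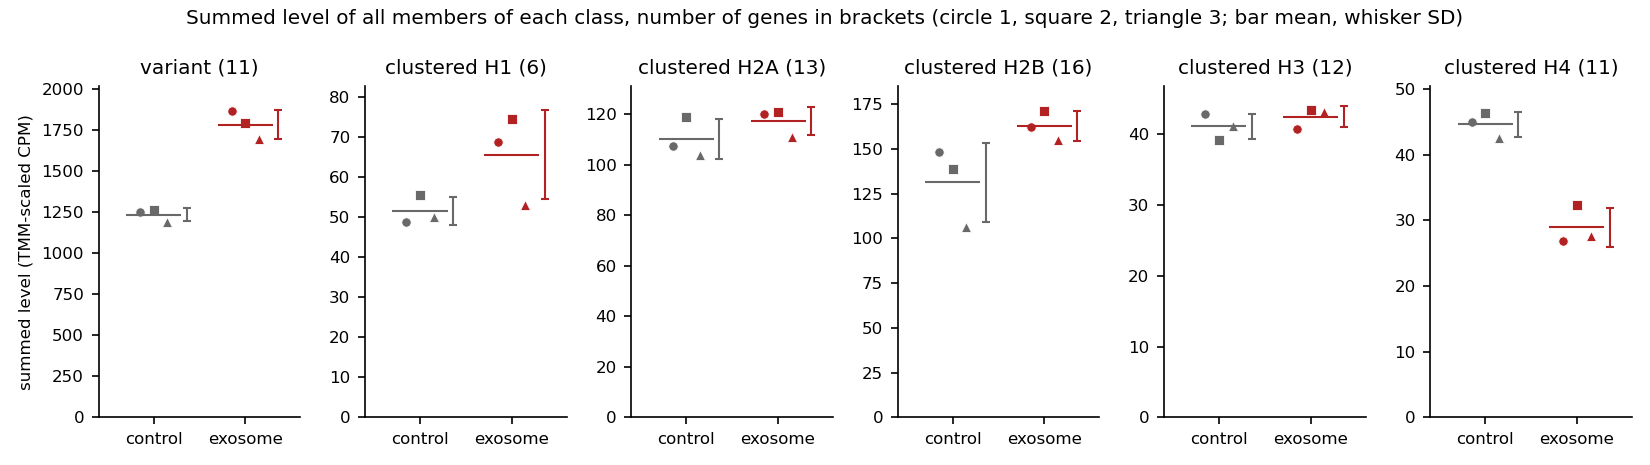
Summed level (TMM-scaled CPM, linear axes from 0) of all variant genes and of each clustered family in every library, with mean (bar) and SD (whisker). Variant sums lie at 1189 to 1263 CPM in controls and 1694 to 1866 CPM with exosomes, and the H4 sums are lower with exosomes.

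Promoter elements differed between the histone families. RefSeq promoters were matched for 62 of the 69 members and compared with 35116 promoters in all, over the 250 bases before the start and on both strands. CCAAT was in 83.9% of members and 32.0% of all promoters. It was in every matched clustered H1, H2A, H2B and H3 promoter (44 of 44) and in 2 of 9 of clustered H4. The octamer ATTTGCAT, the site of OCT1 (gene POU2F1), was in 9 of 12 clustered H2A and 13 of 16 clustered H2B promoters, in none of H1, H3 and H4, and in 1.63% of all. AAACACAA, the H1 box, was in 4 of 6 clustered H1 promoters and in 1.28% of all. TATAAA was in 67.7% of members and 10.7% of all. A match here describes the letters and shows no binding.

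Genes that make, process or degrade histone mRNA changed in both directions without the correction. Of 21 tested, 7 rose (33.3%) and 4 fell (19.0%), against 25.6% and 26.1% of all genes. In that fit the list as a whole stood near the background. Corrected, 8 of the 21 rose and 0 fell, against 17.0% and 16.7% of all genes, so the calls then were rises only. CDK2, the kinase that with cyclin E activates NPAT, averaged 51.5 ± 2.91 CPM in controls and 76.9 ± 6.45 CPM with exosomes (SD, n = 3) and rose by 0.58 on the log2 scale (adjusted p = 2.09e-05; corrected 0.52, adjusted p = 1.32e-05). LSM10, a subunit of the ribonucleoprotein that guides 3′ end cleavage, rose by 0.85 on the log2 scale (adjusted p = 5.01e-05; corrected 0.32, adjusted p = 0.0504). UPF1, the helicase of histone mRNA decay, rose by 0.36 (adjusted p = 0.000531; corrected 0.14, adjusted p = 0.0612). NPAT, the coactivator of clustered histone genes, had 76.2 ± 1.44 CPM in controls and 55.3 ± 5.06 CPM with exosomes (log2 fold change -0.46, adjusted p = 0.000179; corrected -0.05, adjusted p = 0.626). The others that fell were CPSF2, CPSF3 and CASP8AP2, all of 3′ end cleavage. Corrected, CPSF2 turned direction and was called higher (-0.26 to 0.21, adjusted p = 0.0167), CASP8AP2 turned to 0.11 and CPSF3 stood at -0.04, neither called. Only 2 of the list fell without control library 1, control library 2, exosome library 1 or exosome library 2. SLBP, named for its role, had 57.9, 55.9 and 50.8 CPM in controls and 59.1, 67.2 and 62.4 CPM with exosomes and was not called (log2 fold change 0.20, adjusted p = 0.0692).

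Histone chaperones and exchange factors changed in both directions. Of 26 tested, 8 rose (30.8%) and 7 fell (26.9%), which is near the 25.6% and 26.1% of all genes. Corrected, 9 of the 26 rose and 2 fell, against 17.0% and 16.7% of all genes, so nearness to the background held only without the correction. CHAF1A, the large subunit of the replication-coupled assembly factor, averaged 46.1 ± 1.04 CPM in controls and 81.0 ± 8.37 CPM with exosomes and rose by 0.81 on the log2 scale (adjusted p = 5.43e-07; corrected 0.53). ASF1B, which hands histones H3 and H4 to it, rose by 0.63 on the log2 scale (adjusted p = 3.66e-06; corrected 0.26). TONSL, which reads new H4 at forks, rose by 0.91 (adjusted p = 1.04e-05; corrected 0.50). RSF1, a remodelling subunit, fell by 0.54 (adjusted p = 1.43e-05), but was not called when corrected (-0.06, adjusted p = 0.506). ATRX, which deposits the replacement H3 at repeats, had 287 ± 17.0 CPM in controls and 182 ± 30.0 CPM with exosomes (log2 fold change -0.66, adjusted p = 2e-05; corrected -0.16, adjusted p = 0.0456). The others that fell were UBN2, NAP1L1, SPTY2D1, ANP32E and ASF1A, none called lower when corrected. HIRA was called lower only when corrected (log2 fold change 0.02, adjusted p = 0.879; corrected -0.19, adjusted p = 0.0263). All means here are over 3 libraries with their SD.

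DNA replication genes, which are active when clustered histone genes are, were higher as a group. Of 26 tested, 18 rose (69.2%) and none fell, against 25.6% and 26.1% of all genes. Corrected, 21 rose and 1, RFC2, fell, against 17.0% and 16.7% of all genes. FEN1, a flap endonuclease, averaged 49.3 ± 1.85 CPM in controls and 81.1 ± 2.95 CPM with exosomes (SD, n = 3) and rose by 0.72 on the log2 scale (adjusted p = 9.29e-07). CDT1, a licensing factor, rose by 0.97 on the log2 scale (adjusted p = 1.93e-06), MCM7, a helicase subunit, by 0.57 (adjusted p = 3.75e-06) and TYMS, thymidylate synthase, by 0.84 (adjusted p = 6.7e-06). The median log2 fold change of the list was 0.42, beside 0.36 for the clustered histone genes tested and -0.0042 for all genes, and 0.31 corrected beside 0.019.

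Markers of the line's tissue were uneven. KRT8 and KRT18, simple epithelial keratins, averaged 2410 and 1027 CPM in controls, TP63 and SOX2 averaged 1.56 and 4.48 CPM, and the squamous keratins KRT5, KRT6A and KRT14 had at most 6 reads in any library. These 7 are named for their role in defining the tissue. KRT17, a basal keratin, had 41, 49 and 37 reads in controls and 15, 13 and 16 with exosomes. Of 9 squamous and epithelial markers tested, 6 fell and none rose, against 26.1% and 25.6% of all genes. The 4 with the smallest adjusted p were CDH1 (log2 fold change -1.39, adjusted p = 7.89e-10), DSP (-0.51, adjusted p = 2.58e-05), KRT17 (-1.71, adjusted p = 9.55e-05) and KRT18 (-0.39, adjusted p = 0.000174). Of 4 lung fibroblast markers tested, COL1A1 and COL1A2 fell and none rose, with a summed level of 118 to 127 CPM over 8 genes in controls and 56.2 to 61.8 CPM with exosomes. PDGFRA and THY1, named after their values were seen, had 0 to 3 reads in each of the 6 libraries. These levels moved with the groups beside the histone genes, and their part in the results was not tested.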

How the data were processed

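RNA of 6 SK-MES-1 libraries was measured. The table deposited by the authors holds whole-number read counts per gene and FPKM values, per the file headers. Per the submitters' processing notes, STAR and GRCh38 were used. For the counting program, annotation and strand setting the sources used here give nothing. Dividing counts by FPKM gave each gene's counted length, which matched the GENCODE 29 exon union for 60 of 69 members. The other 6 per-sample columns, which hold normalised values, were not used. FPKM, as deposited, otherwise served to compare levels between genes and to give each H1 gene's share of summed H1 FPKM.

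Counts were tested with edgeR 4.0.16 (R 4.3.3; filterByExpr, TMM, robust quasi-likelihood fit, group as the only term), adjusted by Benjamini-Hochberg over 12449 genes at 0.05. CPM used TMM-scaled totals. The corrected fit added a loess trend (span 0.3) of GC content and counted length as a per-library offset. Intervals are at 95%. Alternatives were DESeq2 1.42.0, limma-voom (limma 3.58.1), RLE factors, library totals, other count filters, a stricter threshold, a fit with the replicate number as a block, and each library left out once. The pipeline was tested on simulated data. No pair of libraries agreed within sampling noise (chi-square per gene 2.29 to 15.6 within groups). Library totals were 11346639 to 13334508.

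Every tested member could be named. Values per library are given for variant genes, clustered genes averaging 5 CPM or more, and those called. From each other list, up to 4 genes with the smallest adjusted p and those called against the majority are named. Other genes named are marked. Members and lists were chosen with earlier results of these data known. A list of RNAs without a poly(A) tail was not analysed here.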

Additional observations from a re-analysis of the deposited data

How the results depend on the processing

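Of 567 alternative fold changes of the tested members, 512 kept direction and call, 18 lost the call, 9 gained it and 28 changed sign. H1F0, H1FX, H2AFJ, H2AFZ, H3F3B, HIST2H2BE, HIST1H4H and HIST1H4I kept their call in all 15 settings. With the GC and length offset, with or without the replicate block, 2 clustered genes were higher and 4 lower, 0 supply genes lower, 2 chaperones lower and 1 S phase gene lower, and over all genes 2117 were higher and 2081 lower without the block. With no low-count filter 11 clustered genes were higher, and at an adjusted p under 0.01 4 were higher. Supply genes called lower were 1 with library totals, 2 with DESeq2 and 2 at an adjusted p under 0.01. The cause of these shifts was not tested. Leaving out 1 library in turn gave 4 to 9 clustered genes higher and 2 to 4 supply genes lower.

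Changes of sign, on the log2 scale, fell on genes with small or uncalled values except HIST1H1C and HIST2H3PS2. With the offset, and then with the offset and block, they were -0.189 and -0.188 for HIST1H1C, -0.0689 and -0.0604 for HIST2H3PS2, -0.206 and -0.197 for HIST1H2BK, -0.154 and -0.164 for HIST1H2BG, -0.0178 and -0.0802 for HIST1H3B, -0.0583 and -0.0190 for HIST1H3C, and 0.187 and 0.190 for H2AFV. With library totals H2AFV was 0.0591 and HIST1H2AG 0.0720, and with no filter HIST1H2AG was 0.0044. Leaving out 1 library in turn, the range was -0.0718 to 0.0783 for H2AFV, -0.0598 to 0.0330 for HIST1H2AG, -0.287 to 0.0101 for HIST1H2BC, -0.196 to 0.195 for HIST1H2BG, -0.0305 to 0.362 for HIST1H3G and -0.0034 to 0.485 for HIST2H2BF.

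The replicate block alone gave 8 clustered genes higher and 2 lower and 7 variant genes higher, and added a call for HIST1H2BK (0.38, adjusted p = 0.0195). Same-numbered libraries deviated together with correlations of 0.066, 0.10 and 0.21, so 1 of 3 did not exceed 0.1 and the numbers were not taken as pairs, though each library correlated best with its own number.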
